A study of Mus musculus with 18 samples.

Results

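The SOX genes encode transcription factors that share a DNA-binding domain, the HMG box, first described in the sex-determining factor SRY. The data described here are the counts of 10 SOX genes, Sox1, Sox2, Sox3, Sox4, Sox5, Sox6, Sox8, Sox9, Sox10 and Sox11, taken by gene symbol from a table of 54838 mouse genes, and all 10 had reads in every library. The study asked how the inflammatory cytokine TNF alters the differentiation of neural stem cells to astrocytes. Its RNA-seq table holds 18 libraries from 6 conditions with 3 replicates each. Neural stem cells were taken at embryonic day 14 from the ventricular zone, each isolate from 1 wild type C57BL/6J brain, and were grown as floating neurospheres (NSPs) with EGF at 20 ng/ml, and this is the NSP condition. For the other conditions EGF medium was replaced by medium with 10% fetal bovine serum on coated plates for 24 h, 72 h or 1 week, and at 24 h and 72 h a parallel condition received TNF at 50 ng/ml (24 h TNF and 72 h TNF). The 1 week condition had no TNF. All differentiated cells had therefore seen serum and lost EGF together, so that these changes cannot be told apart from time in culture. The methods speak of independent biological experiments for the data in general, but the labels do not say which culture or animal each library came from, so the p-values measure the spread between these libraries, which may in part be technical.

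SOX proteins bind short sequences such as ACAAAG in the minor groove and bend the DNA, usually beside a partner factor, and they fall into groups by sequence. SoxB1 proteins (SOX1, SOX2, SOX3) hold neural progenitors in an undifferentiated state. SoxC proteins (SOX4, SOX11) act in committed neuronal precursors. SoxD proteins (SOX5, SOX6) lack an activation domain of their own and modulate the action of others. SoxE proteins (SOX8, SOX9, SOX10) work in glia: SOX9 at the onset of gliogenesis and in astrocytes, SOX10 in oligodendrocyte lineage and neural crest cells, and SOX8 beside both.

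In the GRCm38 (mm10) annotation of GENCODE release M21, Sox1 lies on chromosome 8 (chr8:12395295-12400126, plus strand), Sox2 on chromosome 3 (chr3:34650405-34652461, plus strand) and Sox3 on the X chromosome (chrX:60891366-60893430, minus strand). Sox4 (chr13:28948919-28953713) and Sox11 (chr12:27334264-27342574) lie on the minus strand of their chromosomes, and these 5 genes each have 1 exon. Sox5 (chr6:143828425-144781977) and Sox6 (chr7:115470872-116038796), both on the minus strand, spread 25 exon blocks over 953553 and 567925 bases. Sox8 (chr17:25565892-25570686, minus strand) and Sox9 (chr11:112782224-112787760, plus strand) have 3 exon blocks each, and Sox10 (chr15:79154908-79165240, minus strand) has 5. RefSeq promoter sequences, 250 bases before to 50 bases after the transcript start in build GRCm38.p6, were matched by symbol for 7 of the 10 genes. Those of Sox2, Sox4, Sox8 and Sox11 are printed because Sox4, Sox8 and Sox11 fell in every differentiated condition while Sox2 stayed the most abundant of the 10 per kilobase of exon. In counts not divided by length, Sox6 lay above Sox2 at 24 h, 24 h TNF, 72 h TNF and 1 week. Capitals mark the SOX hexamers ACAAAG and ACAATG and the hexamer TGGGAA, which is bound by the Notch effector RBPJ, read on both strands.
Sox2, chr3:34649745-34650044, plus strand: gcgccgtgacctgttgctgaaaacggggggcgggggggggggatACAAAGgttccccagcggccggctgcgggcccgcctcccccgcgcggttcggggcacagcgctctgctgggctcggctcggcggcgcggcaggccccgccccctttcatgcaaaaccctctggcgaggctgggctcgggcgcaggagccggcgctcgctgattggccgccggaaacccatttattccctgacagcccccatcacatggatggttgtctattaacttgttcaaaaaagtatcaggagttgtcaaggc
Sox4, chr13:28953650-28953949, minus strand: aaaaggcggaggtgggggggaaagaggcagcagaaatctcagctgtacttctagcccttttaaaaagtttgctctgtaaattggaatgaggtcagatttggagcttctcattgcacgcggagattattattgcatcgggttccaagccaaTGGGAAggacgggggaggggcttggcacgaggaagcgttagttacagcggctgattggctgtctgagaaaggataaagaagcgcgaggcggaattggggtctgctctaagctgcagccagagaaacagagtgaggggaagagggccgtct
Sox8, chr17:25570637-25570936, minus strand: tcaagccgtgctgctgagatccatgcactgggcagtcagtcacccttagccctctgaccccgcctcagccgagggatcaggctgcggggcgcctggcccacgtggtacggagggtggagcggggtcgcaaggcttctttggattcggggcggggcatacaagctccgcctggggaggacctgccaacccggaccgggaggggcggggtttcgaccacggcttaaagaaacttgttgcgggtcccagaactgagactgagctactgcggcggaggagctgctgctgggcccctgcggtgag
Sox11, chr12:27342669-27342968, minus strand: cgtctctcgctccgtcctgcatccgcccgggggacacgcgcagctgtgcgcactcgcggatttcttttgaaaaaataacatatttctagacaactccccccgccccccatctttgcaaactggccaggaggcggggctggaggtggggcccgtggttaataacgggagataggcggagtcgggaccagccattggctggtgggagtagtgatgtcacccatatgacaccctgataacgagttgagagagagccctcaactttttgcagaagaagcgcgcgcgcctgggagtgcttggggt
The Sox2 window holds ACAAAG once, a hexamer found in 18.7% of 32851 mouse promoters of this length, and the Sox4 window holds TGGGAA once, found in 25.6%. The Sox8 and Sox11 windows hold neither of these hexamers nor ACAATG, which 12.6% of promoters hold. GC content was 66.3% in the Sox2 and Sox8 windows, 58.7% in that of Sox11 and 52.0% in that of Sox4, against a median of 52.7% over all promoters. The Sox2 window carries 27 CpG sites, those of Sox8 and Sox11 21 each and that of Sox4 12, against a median of 7.

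The 18 libraries held between 12509693 and 22549627 counted reads. Levels are given as CPM, the count of a gene scaled to the size of its library, after TMM scaling, which corrects for differences in RNA composition between libraries, and changes as log2 fold changes with their standard error (SE) and an adjusted p from edgeR's quasi-likelihood test over the 20067 genes that passed a filter on low counts, all 10 members among them, with calls at an adjusted p under 0.05. The paper's methods report RNA quality numbers over a wide range without saying which library had which, and the part of RNA quality was not tested. Some libraries stood apart from the other 2 of their condition. NSP replicate 1 had a chi-square per degree of freedom of 46.4 and 40.5 against the other NSP libraries, which differed from each other by 3.71. Replicate 1 of 24 h TNF held Gfap, the intermediate filament of astrocytes, at 1868 CPM against 462 and 596, and Acta2, smooth muscle actin, at 90.1 CPM against 526 and 492. In 72 h TNF, replicate 1 likewise held Gfap at 1020 CPM against 217 and 229, and Acta2 at 49.2 CPM against 186 and 202. Values without these 3 libraries, an alternative chosen after seeing the data, are given where they change a call. These are whole-culture libraries, so fewer cells of a type and less RNA per cell cannot be told apart.

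**Figure D1:**
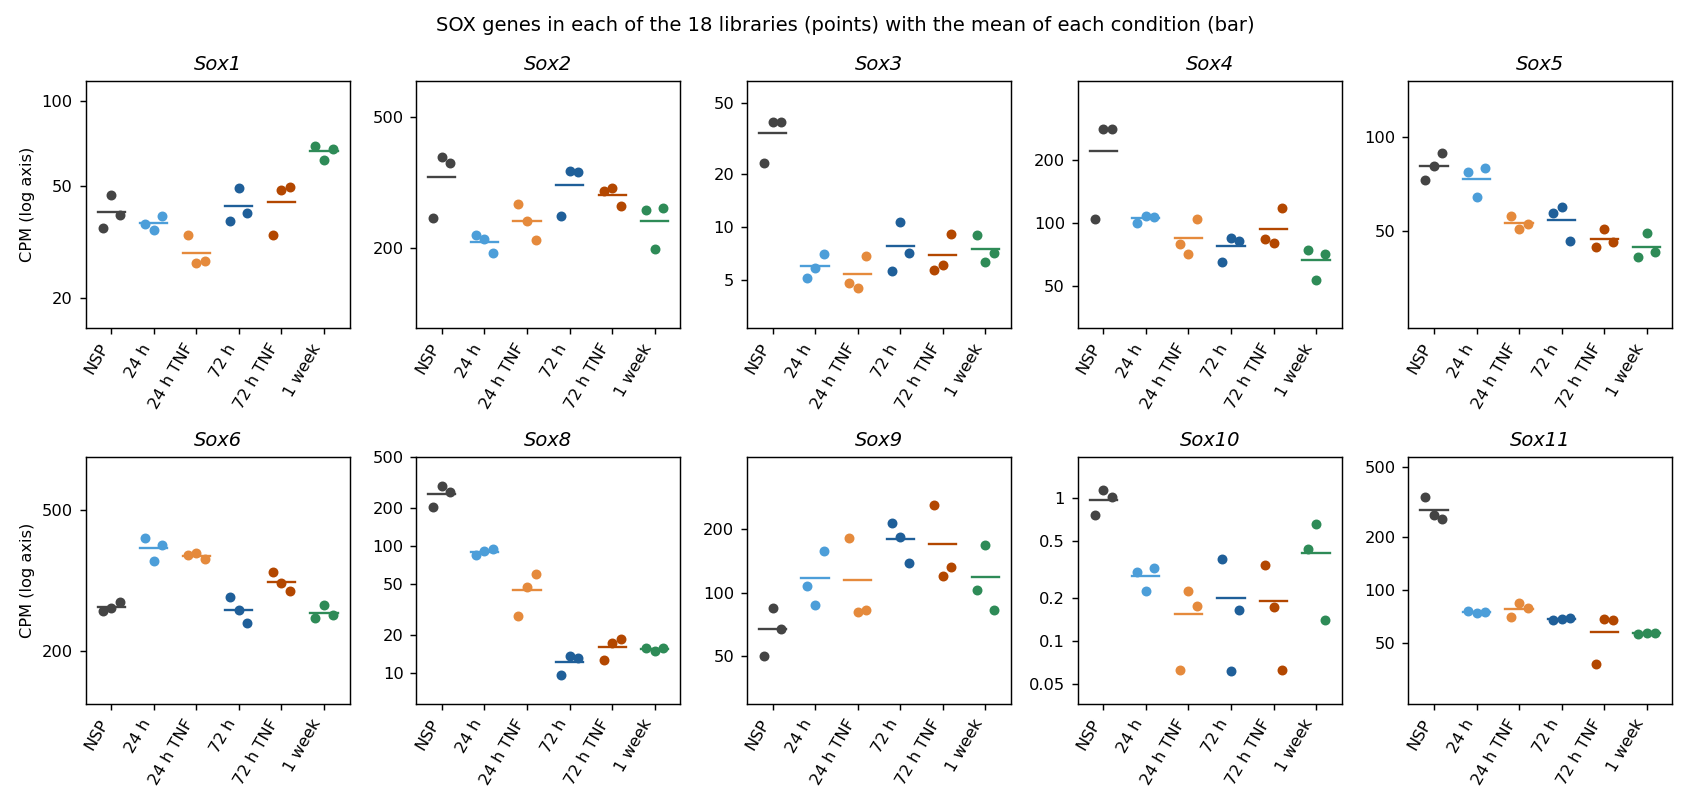
CPM on log axes for each SOX gene in the 18 libraries, with 3 points per condition in replicate order and a bar at the condition mean. Sox8 drops from between 204 and 297 CPM in NSPs to between 9.60 and 13.6 at 72 h, and Sox9 is the only panel in which all 3 libraries of 72 h and of 72 h TNF lie above all NSP libraries while no condition mean lies below the NSP mean.

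Of the 10 SOX genes, Sox3, Sox4, Sox8, Sox10 and Sox11 were called lower than in NSPs in all 5 differentiated conditions, and Sox2 and Sox5 in some of them. Sox6 and Sox9 were called higher in some conditions, and Sox1 was called higher at 1 week and lower at 24 h TNF. At 24 h, 1 of the 10 genes was higher than in NSPs, where 27.2% of all tested genes were, and 6 were lower, against 25.5%. At 72 h, 1 was higher (28.1% of all genes) and 6 were lower (27.2%), and at 1 week 1 was higher (29.6%) and 7 were lower (29.1%). With TNF, 1 gene was higher and 8 were lower at 24 h (28.2% and 26.3% of all genes), and 2 were higher and 6 were lower at 72 h (31.7% and 30.1%). The median log2 change of the 10 genes was -0.87 at 24 h, -1.05 at 72 h and -1.02 at 1 week, where the median over all tested genes was 0.06, 0.05 and 0.06. These comparisons share the same 3 NSP libraries and are not independent of one another.

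**Figure D2:**
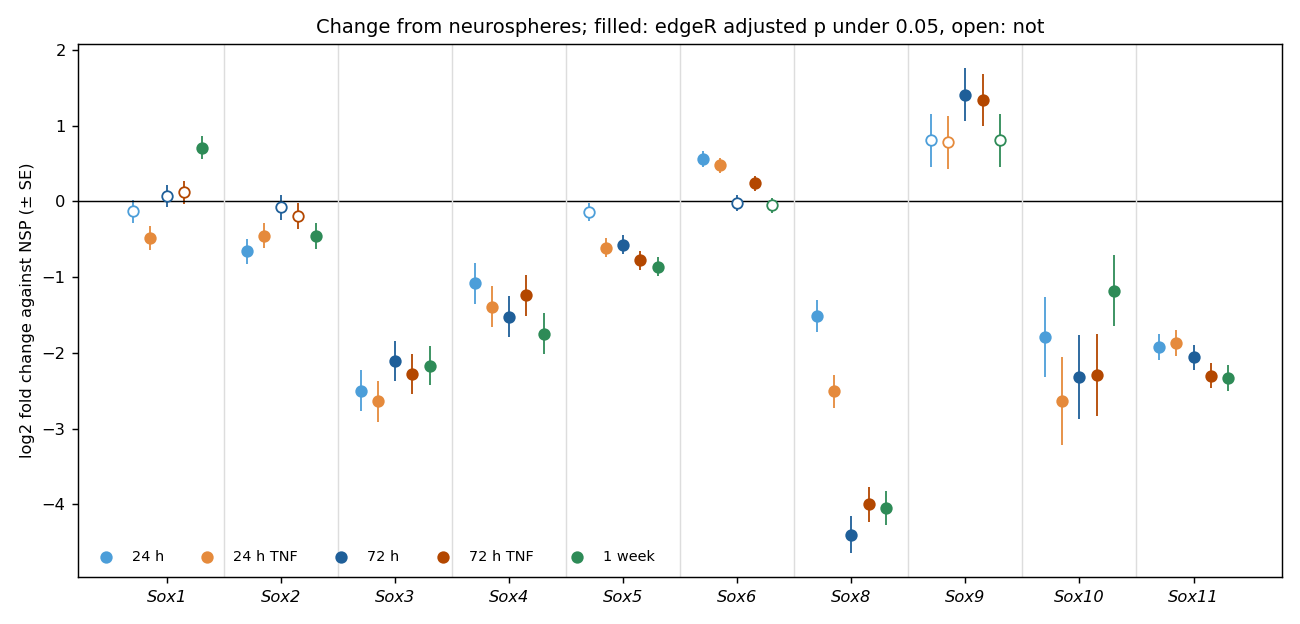
log2 fold change against NSP with its SE for each gene in the 5 differentiated conditions; filled points have an edgeR adjusted p under 0.05. Sox3, Sox4, Sox8, Sox10 and Sox11 lie below 0 with filled points in all 5 conditions, and Sox9 lies above 0 with filled points at 72 h and 72 h TNF.

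Among the SoxB1 genes, Sox3 was lower than in NSPs from 24 h on, Sox2 was lower at 24 h and 1 week but was not called at 72 h, and Sox1 was higher at 1 week. Sox3 held 23.1, 39.3 and 39.2 CPM in the 3 NSP libraries, 5.13, 5.86 and 7.0 at 24 h, 5.67, 10.7 and 7.09 at 72 h and 9.0, 6.35 and 7.10 at 1 week. With TNF it held 4.84, 4.54 and 6.89 CPM at 24 h and 5.68, 6.09 and 9.12 at 72 h. No differentiated library reached the lowest NSP library. Sox3 fell by 2.50 on the log2 scale at 24 h (SE 0.27, adjusted p = 6.44e-07), a 5.65-fold lower level, and its values at 72 h and 1 week were 4.32-fold and 4.51-fold below NSPs.

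Sox2, which maintains neural stem cells and is a core factor of pluripotency, held 247, 380 and 363 CPM in NSPs and 219, 213 and 193 at 24 h. It held 250, 343 and 342 CPM at 72 h and 261, 198 and 264 at 1 week. All 24 h libraries lay below all NSP and all 72 h libraries, while those of NSP and 72 h overlapped. The log2 change was -0.66 at 24 h (SE 0.17, adjusted p = 0.00287), -0.08 at 72 h (SE 0.17, adjusted p = 0.699) and -0.46 at 1 week (SE 0.17, adjusted p = 0.0252). Between 24 h and 72 h Sox2 rose by 0.58 (SE 0.17, adjusted p = 0.0151), a call lost without 24 h replicate 3 (adjusted p = 0.06), 72 h replicate 2 (0.074) or 72 h replicate 3 (0.0678). The 1 week call was lost without 1 week replicate 2 (adjusted p = 0.134), NSP replicate 2 (0.118) or NSP replicate 3 (0.0926), with at least 10 counts in every library (0.0698) and with only the groups compared (0.0734). With TNF, Sox2 held 273, 242 and 211 CPM at 24 h and 299, 304 and 268 at 72 h. Its log2 change from NSPs was -0.45 at 24 h TNF (SE 0.17, adjusted p = 0.0301) and -0.19 at 72 h TNF (adjusted p = 0.342). The call at 24 h TNF was lost without 24 h TNF replicate 2 (0.0699) or 3 (0.118), without NSP replicate 2 (0.134) or 3 (0.106), with at least 10 counts in every library (0.0729) and with only the groups compared (0.0929). Without NSP, 24 h TNF and 72 h TNF replicate 1 the change of Sox2 at 72 h TNF was -0.38 and was called (adjusted p = 0.0423).

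Sox1, a marker of the early neural plate, held 35.3, 46.4 and 39.2 CPM in NSPs, 36.6, 34.8 and 39.0 at 24 h and 37.6, 48.9 and 40.1 at 72 h. At 1 week it held 69.0, 61.7 and 67.5 CPM, above every other library of the table. Sox1 rose by 0.71 on the log2 scale from NSPs to 1 week (SE 0.15, adjusted p = 0.000624) and by 0.64 from 72 h to 1 week (SE 0.15, adjusted p = 0.0146). Sox1 was the only one of the 10 genes called between 72 h and 1 week, an interval in which 2.68% of all genes were higher and 3.96% lower. Its call there was lost without 1 week replicate 1 or 3 (adjusted p = 0.0652 and 0.0556) and without 72 h replicate 1 or 3 (0.0565 and 0.0659). With TNF, Sox1 held 33.4, 26.5 and 27.0 CPM at 24 h and 33.5, 48.2 and 49.3 at 72 h. At 24 h TNF it was lower than in NSPs by 0.48 (log2 change -0.48, SE 0.16, adjusted p = 0.015), a call lost without 24 h TNF replicate 2 (0.0654), 24 h TNF replicate 3 (0.0546) or NSP replicate 2 (0.0822).

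The SoxC genes were both lower in every differentiated condition. Sox11 held 338, 267 and 256 CPM in NSPs, 76.6, 74.4 and 75.8 at 24 h, 68.1, 68.5 and 69.8 at 72 h and 56.3, 57.1 and 57.6 at 1 week. With TNF it held 70.7, 84.4 and 79.7 CPM at 24 h and 38.4, 68.6 and 67.9 at 72 h. The 15 differentiated libraries all lay below the NSP libraries by a wide gap, and the replicates of each untreated differentiated condition lay within a few CPM of each other. Sox11 fell by 1.92 on the log2 scale at 24 h (SE 0.17, adjusted p = 4.62e-08), a 3.79-fold lower level, and was 5.03-fold below NSPs at 1 week (adjusted p = 1.65e-09). Between 24 h and 72 h and between 72 h and 1 week its log2 changes were -0.14 and -0.27 and were not called (adjusted p = 0.601 and 0.41). Without NSP, 24 h TNF and 72 h TNF replicate 1 the second of these was called, at the same size (adjusted p = 0.0182).

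Sox4 held 104, 280 and 281 CPM in NSPs, 99.3, 108 and 107 at 24 h, 64.8, 84.3 and 82.0 at 72 h and 73.8, 52.9 and 71.0 at 1 week. NSP replicate 1 held 0.372 of the mean of the other NSP libraries and fell within the range at 24 h. Sox4 fell by 1.08 at 24 h (SE 0.27, adjusted p = 0.00259), by 1.52 at 72 h (SE 0.27, adjusted p = 0.000113) and by 1.75 at 1 week (SE 0.27, adjusted p = 2.53e-05) on the log2 scale. Without NSP replicate 1 the changes were -1.43, -1.87 and -2.09. That library was the lowest NSP library for 9 of the 10 members and the highest for Sox11. Relative to the mean of the other NSP libraries, its GC-rich genes (the top quintile) lay at -0.33 on the log2 scale against its GC-poor genes (the bottom quintile). The same difference, taken within each condition, ranged from -0.41 to 0.41 over the other 17 libraries. The part of GC content in its SOX levels was not tested.

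Of the SoxD genes, Sox6 was higher than in NSPs at 24 h, and Sox5 was lower at 72 h and 1 week. Sox6, which restrains neuronal and oligodendrocyte differentiation, held 259, 264 and 275 CPM in NSPs, 417, 360 and 399 at 24 h, 284, 261 and 240 at 72 h and 247, 270 and 252 at 1 week. Every 24 h library lay above every NSP and 72 h library. Sox6 rose by 0.56 on the log2 scale at 24 h (SE 0.10, adjusted p = 0.000199) and fell by 0.58 from 24 h to 72 h (SE 0.10, adjusted p = 0.000373), so that at 72 h it was within 0.02 of its NSP value (adjusted p = 0.86). With TNF it held 373, 379 and 364 CPM at 24 h and 334, 312 and 295 at 72 h, still above NSPs at 72 h by 0.24 (SE 0.10, adjusted p = 0.0498). That last call was lost without any 1 of 72 h TNF replicates 1 and 2 and the 3 NSP replicates (adjusted p from 0.0731 to 0.114), without NSP, 24 h TNF and 72 h TNF replicate 1 together (0.18, adjusted p = 0.191) and with the replicate number as a block (0.0653). It was also lost with RLE in place of TMM scaling (0.0829), with no filter on low counts (0.281) and with only the groups compared (0.0993).

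Sox5, which acts with SOX6 in cartilage and controls the timing of cortical neuron differentiation, held 73.0, 81.2 and 89.2 CPM in NSPs, 77.2, 64.3 and 79.8 at 24 h, 57.2, 59.9 and 46.6 at 72 h and 41.5, 49.4 and 42.9 at 1 week. The 24 h libraries overlapped those of NSPs, and all libraries at 72 h and 1 week lay below them. Sox5 fell by 0.57 at 72 h (SE 0.13, adjusted p = 0.000766) and by 0.86 at 1 week (SE 0.13, adjusted p = 1.13e-05) on the log2 scale. From 24 h to 72 h it fell by 0.43 (SE 0.13, adjusted p = 0.0157), and this call was lost without 24 h replicate 1 (adjusted p = 0.0636), 24 h replicate 3 (0.0933) or 72 h replicate 3 (0.095).

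The SoxE genes took opposite courses. Sox8 held 204, 297 and 267 CPM in NSPs, 84.8, 90.5 and 94.8 at 24 h, 9.60, 13.6 and 13 at 72 h and 15.7, 14.9 and 15.6 at 1 week. NSP, 24 h and 72 h libraries formed 3 ranges that did not overlap. Sox8 fell by 1.51 on the log2 scale at 24 h (SE 0.21, adjusted p = 1.10e-05) and by a further 2.89 from 24 h to 72 h (SE 0.23, adjusted p = 8.77e-08). At 72 h it was 21.1-fold below NSPs (log2 change -4.40, SE 0.24, adjusted p = 4.22e-11), and at 1 week 16.6-fold below. This was the largest change among the 10 genes in each comparison of 72 h, 72 h TNF and 1 week with NSPs.

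Sox9 held 50.5, 84.4 and 67.4 CPM in NSPs, 108, 88.0 and 158 at 24 h, 215, 184 and 139 at 72 h and 103, 169 and 83.1 at 1 week. All 24 h and 72 h libraries lay above those of NSPs, and the 1 week libraries overlapped them. Sox9 rose by 1.41 on the log2 scale at 72 h (SE 0.35, adjusted p = 0.00237), a 2.66-fold higher level. The changes at 24 h and 1 week were both 0.81 (SE 0.35) and were not called (adjusted p = 0.0607 and 0.0547). The 24 h change was called without 24 h replicate 2 (0.99, adjusted p = 0.0437) or NSP replicate 2 (1.00, adjusted p = 0.05), and that at 1 week without 1 week replicate 3 (1.01, adjusted p = 0.0306) or NSP replicate 2 (1.00, adjusted p = 0.0439). Both were called when only the groups compared were fitted (adjusted p = 0.0157 and 0.0287), and that at 1 week also with at least 10 counts in every library (0.93, adjusted p = 0.045). With no filter on low counts both were called as well (adjusted p = 9.68e-06 and 1.39e-06). The log2 changes there were 0.76 and 0.81, no larger than in the main fit, and why the adjusted p fell was not tested. With TNF, Sox9 held 183, 80.8 and 82.8 CPM at 24 h and 260, 120 and 132 at 72 h, with replicate 1 at 2.24 and 2.06 times the mean of the other 2 libraries. At 72 h TNF it was 2.53-fold above NSPs (adjusted p = 0.00312), and without NSP, 24 h TNF and 72 h TNF replicate 1 the log2 change moved from 1.34 to 0.73 (adjusted p = 0.0401). At 24 h TNF the log2 change from NSPs was 0.78 (adjusted p = 0.0682), and without these libraries 0.07 (adjusted p = 0.854). It was called without 24 h TNF replicate 2 (0.98, adjusted p = 0.0404) or 3 (0.97, adjusted p = 0.0402). With no filter on low counts it was also called, again with no larger change (0.73, adjusted p = 1.88e-05).

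Sox10 was near the limit of detection. It had 12, 21 and 18 counts in the NSP libraries, 4 in each 24 h library, 5, 1 and 3 at 72 h, 10, 12 and 2 at 1 week, 1, 3 and 3 at 24 h TNF and 6, 3 and 1 at 72 h TNF, where 3 counts correspond to between 0.132 and 0.244 CPM. No differentiated library reached the lowest NSP library in CPM (0.761). Scaled to depth, the summed counts were 3.58-fold lower at 24 h than in NSPs (exact 95% binomial interval 1.88 to 7.37), 5.24-fold lower at 72 h (2.56 to 12.1) and 2.27-fold lower at 1 week (1.37 to 3.86). With TNF they were 6.54-fold lower at 24 h (2.95 to 17.1) and 5.04-fold lower at 72 h (2.53 to 11.1). These intervals cover counting error only. edgeR called Sox10 lower in all 5 comparisons with NSPs (adjusted p from 0.000922 to 0.0372), and the call at 1 week was lost without 1 week replicate 1 or 3 (adjusted p = 0.0832 and 0.146), without NSP replicate 2 or 3 (0.111 and 0.0812) and in DESeq2 (0.104).

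Markers of cell types moved beside the SoxE genes. Over 10 markers of the oligodendrocyte lineage, which include Sox10, the summed level was 1123 to 1476 CPM in NSPs, 481 to 560 at 24 h, 444 to 590 at 72 h and 316 to 387 at 1 week, and at 72 h 6 of the 8 tested were lower than in NSPs and 1, Cnp, was higher. Cnp rose from a mean of 108 CPM at 24 h to 451 at 72 h and made up most of the sum there, while from 24 h to 72 h 4 of the 8 tested were lower (median log2 change -1.87), among them Olig1 and Olig2. Olig2, which specifies the lineage, fell by 4.36 (SE 0.21, adjusted p = 1.29e-11) and Olig1 by 3.78 (SE 0.39, adjusted p = 2.09e-07) on the log2 scale at 72 h. The summed level of 8 astrocyte markers was 5123 to 5358 CPM in NSPs, 5688 to 8136 at 72 h and 2680 to 3244 at 1 week. Its rise at 72 h was carried by Gfap, from a mean of 27.1 to 2430 CPM, and Aqp4, while Slc1a3, Aldoc and S100b were lower. Of the 8 markers 2 were higher and 3 lower (median log2 change -0.41), near the shares over all genes. Over 7 neural progenitor markers, which include Sox2, the summed level was 2521 to 3196 CPM in NSPs and 1476 to 1563 at 24 h. Most of it was Nes (means of 1325 and 747) and Egfr (952 and 426). Of the 7, 4 were lower at 24 h, 1 was higher and 2 were not called (median log2 change -0.66). Pax6 held 111 to 118 CPM at 24 h against 49.5 to 61.9 in NSPs. The summed level of 7 mural and fibroblast markers was 4.09 to 10.6 CPM in NSPs and 402 to 496 at 24 h, nearly all of it Acta2, at 3.52 to 10.3 CPM in NSPs and 400 to 493 at 24 h, while Lum was at 0 in all libraries and Col1a1 did not exceed 0.692 CPM in any. The summed levels of 7 microglial and 5 endothelial markers did not exceed 3.87 and 6.86 CPM in any library, with C1qa at 0 in all conditions and Cdh5 at 0 in all but 1 week. The summed level of 7 neuronal markers was 1617 to 2091 CPM in NSPs and 1572 to 1625 at 72 h, nearly all of it Map2 (means of 1757 and 1579), and of the 6 tested 4 were lower and none higher (median log2 change -1.24), among them Dcx and Tubb3. That of 5 neural crest and Schwann cell markers was 8.18 to 12.4 CPM in NSPs and 18.6 to 25.2 at 72 h. Their part in the SOX changes was not tested.

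To compare genes with each other, CPM was divided by the length of each gene's merged exons in kilobases. In NSPs Sox2 stood first at 161 ± 35.1 CPM per kb (SD, n = 3), followed by Sox8 at 82.1 ± 15.3, Sox4 at 46.2 ± 21.2, Sox11 at 34.5 ± 5.32, Sox6 at 17.9 ± 0.562, Sox3 at 16.4 ± 4.53, Sox9 at 16.3 ± 4.10, Sox1 at 8.34 ± 1.17, Sox5 at 5.64 ± 0.563 and Sox10 at 0.321 ± 0.0653. The ranges of Sox4 and Sox11 overlapped, as did those of Sox6, Sox3 and Sox9, and the other neighbours in this order did not overlap. At 72 h Sox2 was still first at 152 ± 25.9 CPM per kb, Sox9 had moved to second at 43.4 ± 9.30, and Sox8 was at 3.87 ± 0.695, within the ranges of Sox5 and Sox3. At 1 week Sox2 stood at 117 ± 18.2, Sox9 at 28.6 ± 10.8, Sox6 at 17.3 ± 0.840 and Sox1 at 13.7 ± 0.795, which overlapped Sox4 at 13.7 ± 2.38. Merged exons join all isoforms, 14376 bases for Sox5 and 14832 for Sox6, so that their levels per kb are low where shorter isoforms prevail.

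The summed level of the 10 genes was 388 ± 76.2 CPM per kb in NSPs (301 in replicate 1, 443 and 420 in the others), 232 ± 6.84 at 24 h, 257 ± 23.4 at 72 h and 209 ± 10.5 at 1 week. SoxB1 genes made up 47.6% ± 1.32 of it in NSPs (SD, n = 3), 48.3% ± 3.55 at 24 h, 63.5% ± 5.91 at 72 h and 64.1% ± 6.41 at 1 week, nearly all of it Sox2. The SoxC share was 20.8% ± 0.434 in NSPs and 9.46% ± 0.274 at 72 h, and the SoxD share was 6.22% ± 1.13 in NSPs, 13.6% ± 0.757 at 24 h and 8.40% ± 1.36 at 72 h. The SoxE share was 25.4% ± 0.941 in NSPs, 18.6% ± 4.73 at 72 h and 16.3% ± 6.07 at 1 week, and its make-up turned over. From NSPs to 72 h Sox8 went from 21.2% ± 0.670 to 1.5% ± 0.151 of the summed level and Sox9 from 4.18% ± 0.379 to 17.1% ± 4.86.

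**Figure D3:**
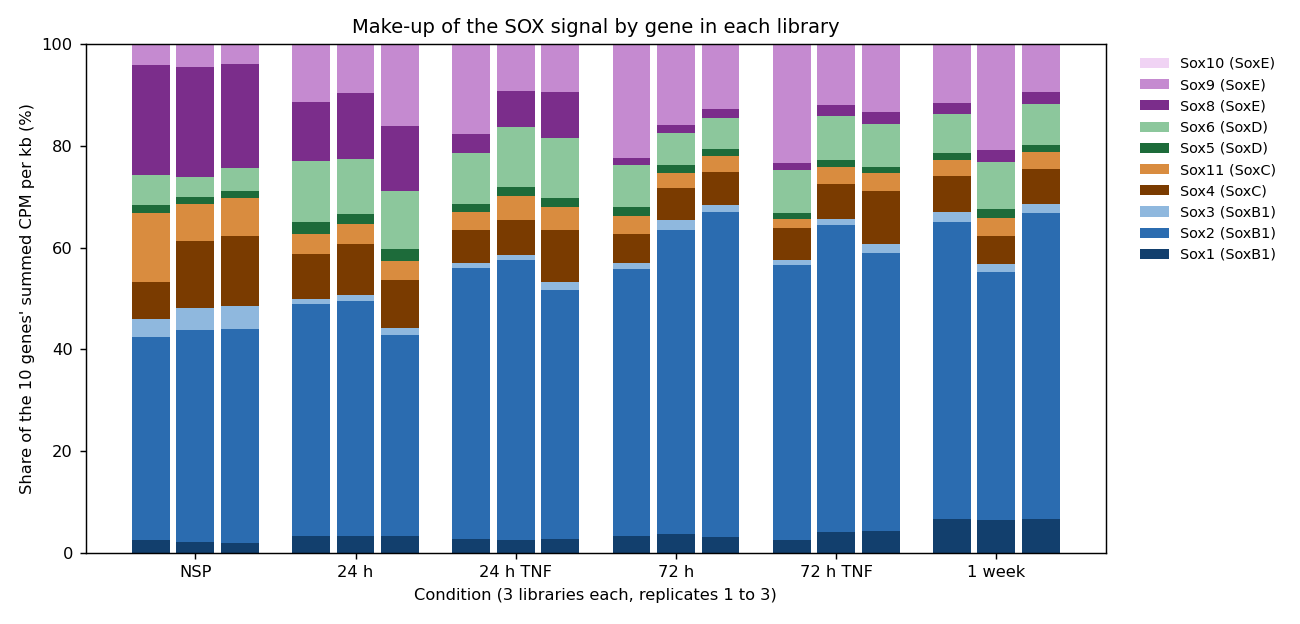
Share of the summed CPM per kb of the 10 SOX genes taken by each gene in each library, stacked from Sox1 at the bottom to Sox10 at the top, with the 3 libraries of a condition side by side. Sox8 holds 20.4% to 21.7% in the NSP libraries and 1.32% to 1.60% at 72 h, where Sox9 holds 12.9% to 22.4%.

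TNF lowered Sox8 and Sox5 at 24 h, and none of the 10 genes was called at 72 h. Among all genes 2.18% were higher and 1.32% lower with TNF at 24 h, and 4.35% were higher and 5.21% lower at 72 h. Sox8 held 28.1, 47.0 and 59.6 CPM at 24 h with TNF against 84.8, 90.5 and 94.8 without, and the ranges did not overlap. It fell by 1.00 on the log2 scale (SE 0.21, adjusted p = 0.00922), a 2.00-fold lower level, and without 24 h TNF replicate 1, the lowest library, by 0.77 (adjusted p = 0.0268). At 72 h Sox8 held 12.6, 17 and 18.3 CPM with TNF against 9.60, 13.6 and 13 without, with ranges that overlapped (log2 change 0.40, SE 0.22, adjusted p = 0.278). Without NSP, 24 h TNF and 72 h TNF replicate 1 the change at 72 h was 0.55 (adjusted p = 0.0116).

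The effect of TNF on Sox8 differed between the times by 1.40 on the log2 scale (SE 0.31, adjusted p = 0.0479), the only one of the 10 genes called in this interaction, in which 0.135% of all genes were called higher and 0.324% lower. The interaction was not called when 1 of 9 of the 12 libraries involved was left out (adjusted p from 0.0783 to 0.14) or when only these 4 conditions were fitted (0.106). Without NSP, 24 h TNF and 72 h TNF replicate 1 it was 1.32 (adjusted p = 0.000878), and the interaction of Sox1, 0.39 in all libraries (SE 0.22, adjusted p = 0.568), was 0.69 (adjusted p = 0.0428). In that fit 150 of all tested genes were called higher and 198 lower in the interaction, against 27 and 65 with all libraries. From 24 h to 72 h Sox8 fell by 2.89 without TNF and by 1.49 with it (SE 0.22, adjusted p = 0.000216).

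Sox5 held 56.0, 50.9 and 52.6 CPM at 24 h with TNF against 77.2, 64.3 and 79.8 without, with no overlap, and fell by 0.47 on the log2 scale (SE 0.13, adjusted p = 0.0429). The call was lost when any 1 of 5 of these 6 libraries was left out (adjusted p from 0.0686 to 0.19, the exception being 24 h replicate 2) and with the replicate number as a block (0.0671). Sox1 lay at 33.4, 26.5 and 27.0 CPM with TNF and 36.6, 34.8 and 39.0 without, a log2 change of -0.34 that was not called (SE 0.16, adjusted p = 0.328); without NSP, 24 h TNF and 72 h TNF replicate 1 it was -0.48 (adjusted p = 0.0223). At 72 h Sox6 held 334, 312 and 295 CPM with TNF against 284, 261 and 240 without, again without overlap, and its log2 change of 0.26 was not called by edgeR (SE 0.10, adjusted p = 0.117). It was the 1 gene of the 10 at an unadjusted p under 0.05 at 72 h, and DESeq2 called it (adjusted p = 0.0416).

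The other members gave wide or small TNF effects. The log2 change of Sox9 was -0.03 at 24 h (SE 0.35) and -0.07 at 72 h (SE 0.35), and without replicate 1 of the TNF condition -0.55 (adjusted p = 0.61) and -0.51 (adjusted p = 0.46). Sox2 changed by 0.22 and -0.10, Sox3 by -0.14 and -0.17, Sox4 by -0.31 and 0.28 and Sox11 by 0.05 and -0.24 at the 2 times, with SEs from 0.16 to 0.28 and adjusted p from 0.386 to 0.941. Sox11 at 72 h TNF held 38.4 CPM in replicate 1 and 68.6 and 67.9 in the others, against 68.1 to 69.8 without TNF, and without that library its change was -0.01.

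Over the course with TNF, from 24 h TNF to 72 h TNF, Sox1 rose by 0.59 (SE 0.16, adjusted p = 0.0163) and Sox8 fell, where 5.38% of all genes were higher and 7.93% lower. The Sox1 call was lost without replicate 2 or 3 of either condition (adjusted p from 0.0715 to 0.086). The log2 change of Sox9 was 0.56 (SE 0.35, adjusted p = 0.329), and without 24 h TNF replicate 1 it was 1.10 and called (adjusted p = 0.0348). With no filter on low counts it was called at nearly the size of the main fit (0.59, adjusted p = 0.0029). Without TNF, from 24 h to 72 h, Sox2 rose and Sox5, Sox6 and Sox8 fell, where 12.2% of all genes were higher and 12.6% lower. Sox4 was called for that interval (-0.43, adjusted p = 0.0492) only without the 3 libraries named above, with no filter (0.0426) or with only the groups compared (0.0143). Sox9 changed by 0.60 there and by -0.60 from 72 h to 1 week. Both changes were called only with no filter (0.62, adjusted p = 0.000764, and -0.57, adjusted p = 0.00644).

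**Figure D4:**
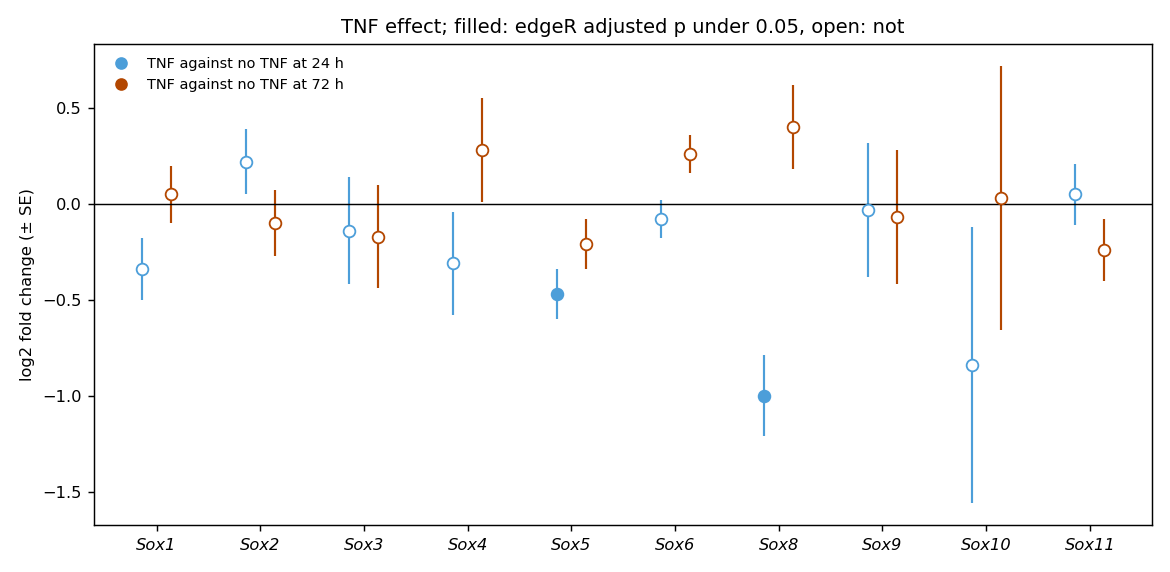
log2 fold change of TNF against no TNF at 24 h and at 72 h with its SE for each SOX gene; filled points have an edgeR adjusted p under 0.05. Sox8 at -1.0 and Sox5 at -0.47, both at 24 h, are the filled points, and the points of Sox8 at the 2 times lie on opposite sides of 0.

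Sox8 shares part of its sequence with another gene of the table. The antisense gene 2810468N07Rik (chr17:25570358-25575043) covers 329 bases at the start of Sox8, 10.6% of its exon sequence, and the Sox8 promoter window printed above lies within it. 2810468N07Rik held 19.1, 30.9 and 28.8 CPM in NSPs, 10.0, 11.7 and 9.68 at 24 h, 3.90, 5.29 and 6.24 at 24 h TNF and 3.02, 3.92 and 3.79 at 72 h. It fell by 1.32 at 24 h (SE 0.22, adjusted p = 6.17e-05), by 2.87 at 72 h (SE 0.23, adjusted p = 7.76e-09) and by 1.03 with TNF at 24 h (SE 0.23, adjusted p = 0.013) on the log2 scale. Sox8 held 9.74 times the CPM of its neighbour in NSPs, 8.59 times at 24 h, 8.73 times at 24 h TNF and 3.37 times at 72 h, so that the 2 genes fell together up to 24 h and Sox8 fell further after it. The libraries were made with a stranded kit, the strand setting of the counting is not given in the sources used here, and the part of shared reads was not tested.

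**Figure D5:**
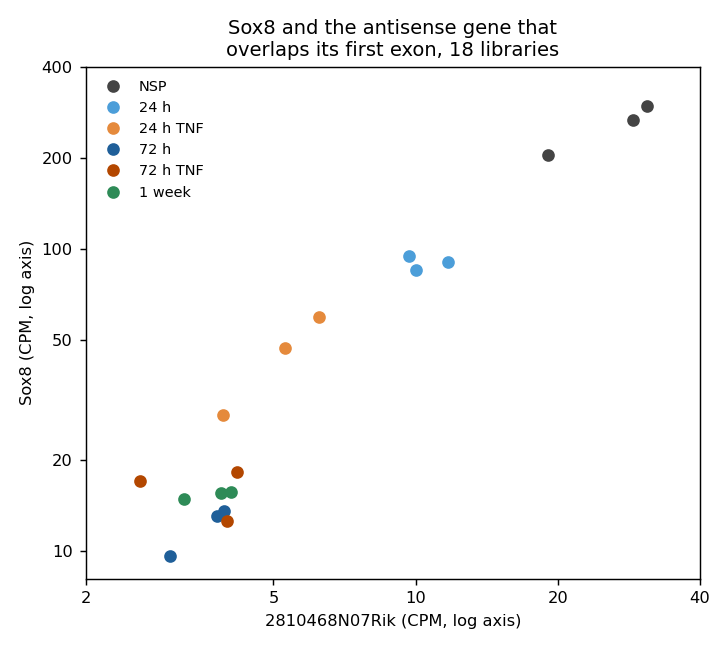
CPM of Sox8 against CPM of the antisense gene 2810468N07Rik in each of the 18 libraries on log axes, coloured by condition. The points run from NSPs at the upper right through 24 h and 24 h TNF to the late conditions, where 2810468N07Rik lies between 2.61 and 4.19 CPM.

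Other annotated genes also lie over or around members. Sox2ot, a non-coding transcript that spans Sox2 on the same strand and shares no annotated exon with it, held 29.3 to 36.1 CPM in NSPs, 70.0 to 84.6 at 72 h and 113 to 126 at 1 week. It rose by 1.17 at 72 h (SE 0.15, adjusted p = 2.94e-06) and by 1.86 at 1 week (SE 0.15, adjusted p = 7.68e-09), times at which Sox2 changed by -0.08 and -0.46. Sox1ot, which spans Sox1 in the same way, rose from 2.54 to 5.10 CPM in NSPs to 16.3 to 17.8 at 24 h (log2 change 2.06, SE 0.35, adjusted p = 0.000105), while Sox1 changed by -0.13. Gm45025, on the opposite strand within introns of Sox6, was, like Sox6, higher than in NSPs at 24 h, by 1.18 (SE 0.17, adjusted p = 1.36e-05), and lower at 72 h than at 24 h (log2 change -0.55, SE 0.16, adjusted p = 0.0182). Unlike Sox6, which was not called, Gm45025 was still higher than in NSPs at 72 h by 0.62 (SE 0.17, adjusted p = 0.00382) and at 1 week by 0.66 (SE 0.17, adjusted p = 0.00233), and the difference between these genes was not tested. At 72 h Gm45025 was higher with TNF by 0.57 (SE 0.16, adjusted p = 0.0355). Gm26735, on the opposite strand over 54.6% of Sox4, had a mean of at most 0.059 CPM in any condition.

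Of 9 other SOX genes looked up by symbol, 3 passed the filter on low counts. Sox21, a SoxB2 gene that counteracts SoxB1 factors, was at 99.6 CPM in NSPs and 71.9 at 72 h and was called lower in all 5 comparisons with NSPs (log2 changes from -0.39 to -0.65), with ranges that overlapped in all but 24 h TNF. Sox12, the remaining SoxC gene, was lower at 1 week (-0.58, SE 0.24, adjusted p = 0.0475), 24 h TNF and 72 h TNF, and Sox13, the remaining SoxD gene, at 24 h TNF and 72 h TNF. None of them was called for TNF at either time, and Sox12 at 24 h TNF had a log2 change of -0.88 against 24 h (SE 0.25, adjusted p = 0.0584). Sox15 stayed under 1 CPM, and Sox7, Sox14, Sox17, Sox18 and Sox30 were at or near 0 counts.

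Genes known as partners or targets of SOX proteins are given by list, for 72 h against NSPs, where the median log2 change over all tested genes was 0.05 and 28.1% of all genes were called higher and 27.2% lower. Shares of a list near these values, as for the beta-catenin list, do not set it apart. Of 12 POU partners and SoxB1 progenitor genes, 2 were higher and 7 lower (median -0.72), among them the Notch target Hes5 (-7.56, SE 0.69), the POU factor Pou3f1 (-4.09, SE 0.53), the cell cycle kinase Cdk6 (-3.06, SE 0.44) and Fabp7 (-2.79, SE 0.34), a radial glial lipid carrier. Of 9 tested SoxC neuronal targets, 7 were lower and none higher (median -1.84), led by the neuronal RNA-binding protein gene Elavl4 (-3.55, SE 0.37), the migrating neuron marker Dcx (-3.01, SE 0.71), Neurod1 (-2.91, SE 0.27) and Elavl3 (-2.40, SE 0.40). Sox4 and Sox11 were lower in the same comparison.

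Of 12 astroglial targets of SOX9 and NFIA, 3 were higher and 6 lower (median -0.52). Gfap rose by 6.48 (SE 0.68) and the water channel gene Aqp4 by 2.46 (SE 0.40), while Apcdd1 fell by 3.58 (SE 0.35) and Mmd2 by 2.71 (SE 0.35). With TNF at 72 h, 1 of these 12 was higher and 3 were lower, among them Gfap, at 1020, 217 and 229 CPM with TNF and 1852 to 3168 without, where 4.35% of all genes were higher and 5.21% lower. Of 7 tested SOX10 targets, 3 were higher and 2 lower (median -0.38), among them the receptor gene Erbb3 up by 3.26 (SE 0.59), Cnp up by 2.26 (SE 0.21) and the progenitor receptor gene Pdgfra down by 2.40 (SE 0.35), whereas Sox10 was lower. The myelin genes Mag and Gjb1 had means of at most 0.0193 CPM in every condition. Of 5 tested cartilage targets of SOX5, SOX6 and SOX9, 2 were higher, the collagen genes Col9a2 by 2.37 (SE 0.40) and Col11a1 by 1.29 (SE 0.21). Of 10 genes for beta-catenin and regulators of SOX proteins, 1 was higher, Tcf7l2 by 1.13 (SE 0.30), and 3 were lower, among them Hdac1 by 0.53 (SE 0.14) and Senp1 by 0.47 (SE 0.17), with a median of -0.23. With TNF at 24 h, where 1.32% of all genes were lower, 2 of 12 astroglial targets were lower, Apcdd1 by 1.51 and Fgfr3 by 0.69 on the log2 scale. Of the 7 tested SOX10 targets 1 was lower, and no member of the partner, SoxC, cartilage, beta-catenin or other SOX lists was called. With TNF at 72 h, Pou3f1 was higher by 2.21, Cnp was lower by 1.04, the cartilage collagen genes Col9a1 and Col9a2 were lower by 1.28 and 1.26, and no SoxC neuronal target and no gene of the beta-catenin list was called.

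Likeness of pattern was measured as Pearson's r between log2 CPM over the 6 condition means, among 8443 genes that averaged 1 CPM or more and spanned 1 or more on the log2 scale, and is a description without a test, since with 6 points many genes reach a high r. The 2 genes most like Sox8 were Sez6l and Gm26824 (both r = 0.998), and those most like Sox3 were Pola1 (0.999) and Mogs (0.998). Sox4 was most like Sh3d19 and Pcdhb5 (both 0.996), Sox9 most like Nfatc2 and Gm8275 (both 0.993), and Sox2 most like Col26a1 (0.998) and Foxc2 (0.964). Sox5 was most like Pigs and Gm22661 (both 0.989), Sox6 most like Gm37593 and Robo2 (both 0.988), and Sox1 most like 1700022I11Rik (0.977) and Hlf (0.973). Among the members themselves r was 0.929 between Sox4 and Sox11, 0.924 between Sox3 and Sox11, 0.908 between Sox5 and Sox8 and -0.874 between Sox8 and Sox9.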

How the data were processed

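RNA-seq of 18 libraries from 6 conditions was analysed. The authors made the table of counts with stranded, ribosomal RNA depleted total RNA libraries, and the submitters' processing notes name FastQC, Trim Galore, STAR, SAMtools, featureCounts and genome build mm10, without versions in the sources used here. The deposited values are raw counts per gene, from 12509693 to 22549627 per library, so 3 counts correspond to 0.132 to 0.244 CPM. Identifiers were matched to GENCODE M21 (54809 of 54838). Groups came from the sample titles. For 72 h replicate 3 the column is numbered 4, and it was matched by its sequencing index.

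Counts were fitted with edgeR 4.0.16 (R 4.3.3): filterByExpr, TMM scaling, a quasi-likelihood test over all 18 libraries with 1 coefficient per condition, and Benjamini-Hochberg adjustment over 20067 genes with a threshold of 0.05. SEs were derived from the F statistic. CPM values use TMM factors, and log2 CPM a prior count of 2. Intervals for Sox10 are exact binomial intervals. No pair of replicates was close enough to be 1 library deposited again (chi-square over degrees of freedom at least 3.71). The script was tested on simulated data.

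Alternatives were DESeq2 1.42.0, RLE scaling, no filter, at least 10 counts in every library, fits of just the conditions compared, a block for the replicate number, and leaving out each library. Leaving out NSP, 24 h TNF and 72 h TNF replicate 1 together was added after seeing the data. Numbers were taken to pair libraries where the deviations of all 3 same-numbered pairs correlated over 0.1, which held between 72 h TNF and 24 h TNF only (0.255 to 0.291).

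The members and gene lists were chosen with earlier results of these data known. Named genes are all 10 members, other SOX genes, up to 4 list members with the largest called change at 72 h against NSPs, the 2 genes most alike in pattern, and genes overlapping a member. Proteins and the promoters of Sox3, Sox9 and Sox10 were not analysed here, and a few genes that the rule names are not reported here.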

Additional observations from a re-analysis of the deposited data

Results flagged for a closer look

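The effect of TNF on Sox8 differed between the times. TNF lowered Sox8 at 24 h in 3 of 3 libraries relative to every untreated library (log2 change -1.0), while at 72 h the log2 change was 0.40 and the ranges overlapped, a difference of 1.40 on the log2 scale (SE 0.31, edgeR adjusted p = 0.0479). The call of this difference was lost when any of several single libraries was left out (adjusted p from 0.0783 to 0.14) and with only the groups compared (0.106). By 72 h Sox8 had dropped to between 9.60 and 18.3 CPM with or without TNF. The antisense neighbour 2810468N07Rik gave an interaction of 1.03 that was not called (adjusted p = 0.238). The cause of the difference was not tested.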

How the results depend on the processing

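Counts of called SOX genes against NSPs stayed within 1.5 times their value in all alternatives run. Left-out libraries gave 7 to 8 called at 24 h, 7 in each case at 72 h, 6 to 8 at 1 week, 7 to 9 at 24 h TNF and 7 to 8 at 72 h TNF. They gave 2 to 4 for 72 h against 24 h, 0 to 1 for 1 week against 72 h, 1 to 3 for 72 h TNF against 24 h TNF, 1 to 2 for TNF at 24 h, 0 in each case for TNF at 72 h and 0 to 1 for the interaction. With the replicate number as a block, TNF at 24 h gave 1 called gene, and with 72 h replicate 3 unpaired 1, with 2 for 72 h against 24 h and 0 for 1 week against 72 h. The block changed no call for 72 h TNF against 24 h TNF, where the numbers pair the libraries, and elsewhere libraries share only a number. TNF at 24 h also gave 1 with no filter, with at least 10 counts in every library and with only the groups compared. Only the groups compared gave 1 for 72 h TNF against 24 h TNF and 0 for the interaction, no filter gave 2 for 1 week against 72 h, and DESeq2 gave 1 for TNF at 72 h. Leaving out NSP, 24 h TNF and 72 h TNF replicate 1 together gave 2 for 1 week against 72 h, 1 for TNF at 72 h and 2 for the interaction. The cause was not tested.

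Of the values for called genes, 363 kept their call under other alternatives and 24 did not, and 253 kept it and 47 did not with a library left out. The signs that turned all belong to changes that were not called. In other alternatives these were Sox1 at 72 h against NSPs (-0.03) and for TNF at 72 h (-0.01), Sox2 (0.01) and Sox6 (0.08, 0.04 and 0.03) at 72 h against NSPs, Sox6 at 1 week against NSPs (0.06), the interaction of Sox3 (0.02 and 0.03), Sox9 (0.01 and 0.04) and Sox10 (-0.13), and Sox10 for TNF at 72 h (-0.00 and -0.62) and from 24 h TNF to 72 h TNF (-0.65). With a library left out, values ranged from -0.05 to 0.18 for Sox1, -0.26 to 0.06 for Sox2 and -0.09 to 0.03 for Sox6 at 72 h against NSPs, and from -0.24 to 0.23 for Sox3 and -0.09 to 0.03 for Sox6 at 1 week against 72 h. For TNF at 72 h they ranged from -0.05 to 0.21 for Sox1, -0.41 to 0.12 for Sox3, -0.51 to 0.12 for Sox9 and -0.63 to 0.72 for Sox10. For TNF at 24 h they ranged from -0.55 to 0.22 for Sox9 and -0.02 to 0.10 for Sox11, for the interaction from -0.28 to 0.25 for Sox3 and -0.48 to 0.48 for Sox9, and from 24 h TNF to 72 h TNF from -0.06 to 0.32 for Sox4 and -0.29 to 0.73 for Sox10. Sox10, with 1 to 21 counts a library, is the member that depth limits most.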
